A study of Homo sapiens with 90 samples.

Results

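In A673 cells, an Ewing sarcoma line that carries the EWSR1-FLI1 fusion, 7 genes were called lower at 10 µM fenbuconazole than at 10 µM 2,4-D. The 7 genes were EGR1, DDIT4, CTH, PCK2, CHAC1, TRIB3 and ATF3. By the gene lists used here, DDIT4, CHAC1, TRIB3 and ATF3 are stress regulators linked to the transcription factor ATF4. CTH and PCK2 are listed with enzymes of amino acid synthesis and one-carbon metabolism, and EGR1 with immediate early genes. No pathway was tested as a set. Against each chemical's own lower concentrations, the called probe sets of the 7 genes stood 0.50 to 0.66 log2 units lower in fenbuconazole than in 2,4-D. The calls depended on the fit and the reference. Of 9 called probe sets (8 lower), 2 passed when arrays of one replicate number were not tied together. Against the DMSO arrays, taken as separate in each set, 0 or 1 passed, depending on the fit. Imazalil at 10 µM had the same sign at the 8 lower probe sets, beside 28133 of all 54613 probe sets below 0 in imazalil. Fenbuconazole is a triazole fungicide that inhibits the fungal lanosterol demethylase. The herbicide 2,4-D (2,4-dichlorophenoxyacetic acid) is a chlorophenoxy compound that mimics the plant hormone auxin. Of the 90 arrays of the series, 54 belong to this comparison: 6 arrays at 10 µM, 3 per chemical, and 48 arrays at 8 lower concentrations between 0.001 and 3 µM, 24 per chemical. All cells were exposed for 24 h in the same DMSO vehicle, each concentration was run with replicate numbers 1 to 3, and the remaining arrays hold the imazalil treatments and the DMSO controls. Members were chosen by label and not by their values, though with earlier results of these data known.

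The quantity compared was the level at 10 µM minus the mean of the same chemical's 8 lower concentrations, within each replicate number, and then fenbuconazole minus 2,4-D. The authors normalized the set of each chemical on its own, so levels were not compared across sets. Array medians lay between 2.76 and 2.83 log2 units in the fenbuconazole treatments and between 3.40 and 3.46 in the 2,4-D treatments. Within each chemical and replicate number the running numbers in the labels fall as the concentration goes up, so running order and concentration cannot be told apart. Ewing sarcoma markers were high, with CD99, STEAP1, PRKCB, NKX2-2 and LIPI between the 82.5th and 99.5th percentile of measured genes, while 16 markers of breast, liver, blood and endothelial cells lay between the 6.06th and 54.7th percentile. In bulk RNA, fewer cells with a transcript and less RNA per cell cannot be told apart.

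Cells that run short of amino acids, or that carry other stress on translation, phosphorylate the initiation factor eIF2 and translate the transcription factor ATF4, which induces genes for amino acid synthesis, amino acid uptake and tRNA charging together with regulators such as TRIB3, CHAC1, DDIT4 and ATF3. EGR1 is an immediate early gene: growth factor signals through the kinase ERK induce it within minutes by way of serum response factor, which binds the element called the CArG box. In animal cells, inhibition of sterol synthesis lowers cellular sterol and releases SREBP-2, which induces the enzymes of cholesterol synthesis.

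Promoter windows of the called genes are shown because ATF4 and serum response factor act through known elements. RefSeq windows (GRCh38.p14, 250 bases before to 50 after each start) were searched on both strands for TGATGNAA, the core of the composite C/EBP-ATF element, for TGACGTCA, the cAMP response element, and for the CArG box; the matches shown do not overlap one another. Among all 35116 windows, 3.62% hold the composite core, 1.85% the cAMP response element and 1.29% a CArG box. Of 10 windows of the 7 called genes, 3 hold a match. The stretch of EGR1 (chr5:138465334-138465445, plus strand) has 2 CArG boxes, at -105 and -83 from the start. ATF3 (chr1:212565176-212565263, plus strand) has 1 composite core at -191, in 1 of its windows. CHAC1 (chr15:40953222-40953309, plus strand) has 1 on the opposite strand at -209. ASNS (chr7:97872429-97872516, minus strand), whose difference did not pass, has 1 at -68. Capitals mark the matches.
EGR1: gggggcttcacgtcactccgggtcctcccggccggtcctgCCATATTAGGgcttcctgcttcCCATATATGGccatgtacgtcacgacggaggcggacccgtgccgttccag
ATF3: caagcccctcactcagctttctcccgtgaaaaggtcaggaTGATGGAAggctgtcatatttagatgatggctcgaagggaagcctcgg
CHAC1: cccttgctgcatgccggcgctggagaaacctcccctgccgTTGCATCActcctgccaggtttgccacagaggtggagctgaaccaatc
ASNS: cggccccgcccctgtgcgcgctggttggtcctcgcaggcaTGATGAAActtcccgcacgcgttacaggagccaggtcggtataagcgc

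A match of letters is a description and not a site in use. The windows of DDIT4, TRIB3, CTH and PCK2 held none of the 3 motifs. By gene, 4.46% of 27305 genes had the composite core in at least 1 window, against 5 of 17 genes with a window among the ATF4-linked stress regulators, 4 of 11 among the enzymes of amino acid synthesis and one-carbon metabolism, 5 of 10 among the amino acid transporters and 7 of 16 among the cytosolic aminoacyl-tRNA synthetases. The CArG box was present in 1.60% of genes and in 2 of 15 immediate early genes, EGR1 and SRF.

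Over all 54613 probe sets, 9 differed between the chemicals at 10 µM (0.0165%; limma, adjusted p under 0.05 by Benjamini-Hochberg). Of these 8 were lower in fenbuconazole (0.0146%) and 1 was higher (0.00183%). At an unadjusted p under 0.05 the numbers were 1430 lower (2.62%) and 1559 higher (2.85%), and the median difference over all probe sets was 0.0035. The 95% interval of a difference had a median half-width of 0.26 log2 units, with 0.18 and 0.35 at the 10th and 90th percentile. In all 9 the fenbuconazole deviations at 10 µM did not overlap those of 2,4-D, as in 4.47% of all probe sets with fenbuconazole lower and 4.48% with fenbuconazole higher.

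EGR1, a zinc finger transcription factor, had the largest difference of the 9. At probe set 201694_PM_s_at it was at 7.25, 7.15 and 7.54 log2 units in the 3 fenbuconazole arrays at 10 µM, against 7.69 to 8.47 (median 8.02) in the 24 arrays at lower concentrations. In 2,4-D it was at 9.12, 9.14 and 9.39 at 10 µM, against 9.06 to 9.47 (median 9.23). All 3 fenbuconazole arrays at 10 µM lay below all 24 lower ones, whereas the 2,4-D arrays lay inside their range. Each chemical's own difference was -0.70 (SE 0.064) in fenbuconazole and -0.04 (SE 0.064) in 2,4-D, which gives -0.66 (SE 0.090, 95% interval -0.84 to -0.48, limma adjusted p = 3.9e-05). A second EGR1 probe set, 227404_PM_s_at, gave -0.64 (SE 0.113, adjusted p = 0.0105), with replicate deviations of -0.55, -0.88 and -0.68 in fenbuconazole against -0.09, 0.08 and -0.17 in 2,4-D. The third, 201693_PM_s_at, gave -0.49 and did not pass (adjusted p = 0.456). All 3 probe sets thus had the same sign.

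DDIT4 encodes an inhibitor of the growth kinase mTORC1. Its level was 6.37, 6.76 and 6.26 in fenbuconazole at 10 µM, against 6.58 to 7.41 (median 7.06) below 10 µM. In 2,4-D it was 8.01, 8.09 and 7.68 at 10 µM, against 7.52 to 8.21 (median 7.92). Levels shifted between replicate numbers, so the deviations within a number show the difference more plainly. They were -0.69, -0.55 and -0.43 in fenbuconazole, against 0.11, -0.02 and 0.09 in 2,4-D, and each fenbuconazole deviation was below every one of its 24 lower arrays. The difference was -0.62 (SE 0.084, interval -0.79 to -0.45, adjusted p = 3.9e-05).

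TRIB3 is a pseudokinase that ATF4 induces and that restrains ATF4 in turn. At 10 µM it was at 7.0, 7.30 and 7.0 in fenbuconazole, against 7.37 to 8.29 (median 7.77) at lower concentrations. In 2,4-D it was at 8.93, 8.90 and 8.64 at 10 µM, against 8.54 to 9.39 (median 9.00). By level, the fenbuconazole arrays again lay below all their lower ones, and the 2,4-D arrays lay in the lower part of their range. The deviations were -0.71, -0.88 and -0.63 in fenbuconazole and -0.06, -0.37 and -0.10 in 2,4-D. That of 2,4-D replicate 2 lay below those of all 24 lower 2,4-D arrays, of which the lowest was -0.20. TRIB3 had the largest own difference of the 8 lower probe sets in fenbuconazole, -0.74 (SE 0.074), beside -0.18 (SE 0.074) in 2,4-D, and the difference between them was -0.56 (SE 0.104, adjusted p = 0.0167). The second TRIB3 probe set gave -0.41 (adjusted p = 0.814).

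CHAC1 encodes an enzyme that breaks down glutathione. It was at 5.27, 5.66 and 4.93 in fenbuconazole at 10 µM, against 5.60 to 6.12 (median 5.91) below, and at 6.77, 6.69 and 6.25 in 2,4-D at 10 µM, against 6.13 to 7.07 (median 6.61). Its deviations were -0.62, -0.29 and -0.86 in fenbuconazole and 0.14, -0.04 and -0.10 in 2,4-D. Replicate 2 of fenbuconazole moved least, yet its deviation was still below all 24 lower arrays. The difference was -0.59 (SE 0.117, interval -0.82 to -0.35, adjusted p = 0.0417).

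PCK2, the mitochondrial phosphoenolpyruvate carboxykinase, was at 6.09, 6.13 and 5.79 in fenbuconazole at 10 µM, against 6.15 to 7.18 (median 6.61) at lower concentrations. In 2,4-D it was at 7.35, 7.35 and 7.09 at 10 µM, against 6.87 to 7.85 (median 7.31). The fenbuconazole deviations of -0.52, -0.89 and -0.64 lay apart from 0.05, -0.30 and 0.02 in 2,4-D. The difference of -0.60 (SE 0.122, interval -0.85 to -0.36) only just passed (adjusted p = 0.0495).

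CTH encodes cystathionine gamma-lyase, which makes cysteine. At 10 µM it was at 5.42, 6.31 and 6.13 in fenbuconazole, against 6.07 to 6.99 (median 6.43) below, and at 7.35, 7.60 and 7.29 in 2,4-D, against 6.93 to 7.73 (median 7.31). The fenbuconazole replicates were uneven, with deviations of -0.95, -0.53 and -0.18, while 2,4-D had 0.04, 0.07 and 0.11. By deviation, replicate 3 of fenbuconazole lay inside the range of its arrays at lower concentrations. The difference was -0.63 (SE 0.124, adjusted p = 0.0417), and a brighter CTH probe set gave -0.31 (adjusted p = 0.879).

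ATF3 encodes a bZIP transcription factor that many kinds of stress induce. It was at 5.28, 5.73 and 5.43 in fenbuconazole at 10 µM, against 5.76 to 6.10 (median 5.94) below. In 2,4-D it was at 6.72, 6.76 and 6.54 at 10 µM, against 6.36 to 6.78 (median 6.65). Its fenbuconazole deviations of -0.68, -0.19 and -0.50 again had replicate 2 closest to its reference, beside 0.10, 0.07 and -0.03 in 2,4-D. The difference was -0.50 (SE 0.091, adjusted p = 0.0140). Its other probe sets gave -0.26 (adjusted p = 0.960) and -0.04 (adjusted p = 0.998), at lower signal.

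The arrays carry 13 probe sets for these 7 genes. The 8 that passed brought these genes in, so their sign adds no support. The others had differences of -0.49 to -0.04, and none passed (limma adjusted p 0.456 to 0.998). Of all probe sets, 48.9% had a negative difference. In fenbuconazole, 6 of the 8 (all but CTH and ATF3) had every deviation at 10 µM below those of all 24 lower arrays, which 78 probe sets had in all (0.143%). The only probe set called higher, 240832_PM_at, has no gene named here and a mean level of 2.31, low in the range of these arrays. It was at 2.07, 2.58 and 2.87 in fenbuconazole at 10 µM, against 1.86 to 2.27 (median 2.05) below, and at 2.43, 2.49 and 2.38 in 2,4-D, against 2.32 to 2.71 (median 2.54). Its difference of 0.56 (SE 0.109, adjusted p = 0.0366) came with fenbuconazole deviations of 0.04, 0.51 and 0.81, so the replicates differed widely.

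**Figure D1:**
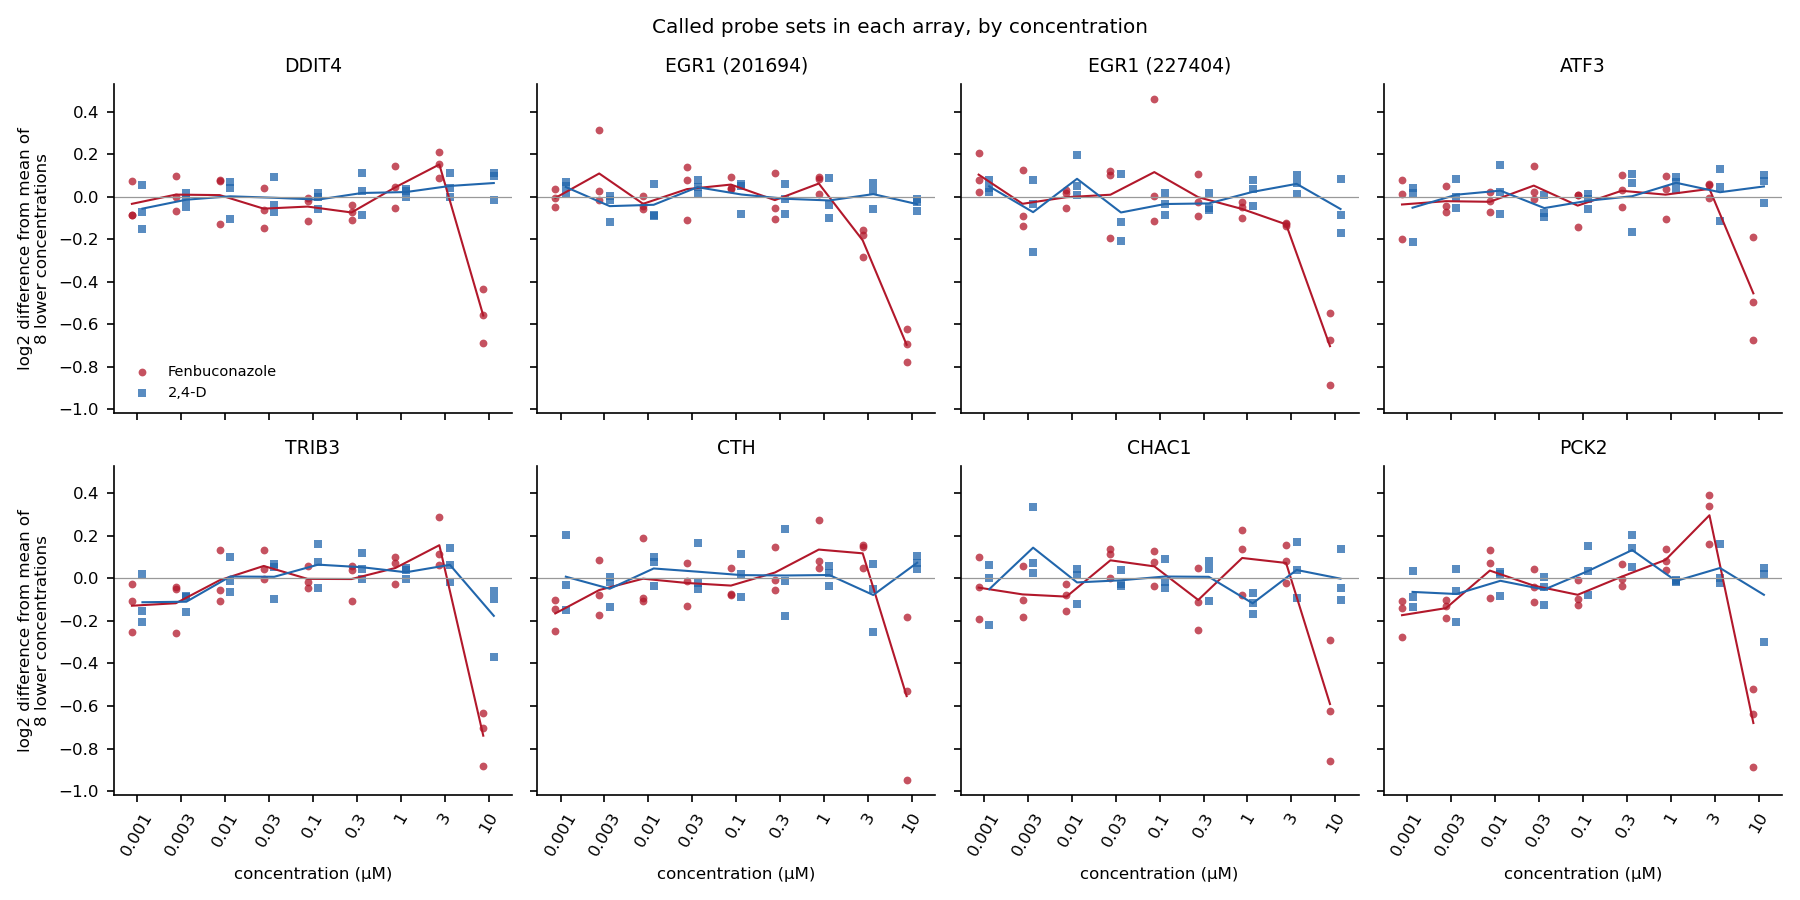
Deviation of each array from its chemical's mean over the 8 lower concentrations of the same replicate number (log2 units, vertical axis) by concentration in µM (horizontal axis, evenly spaced steps), for the 8 called probe sets with a gene name. Points are arrays (circles fenbuconazole, squares 2,4-D) and lines join the means of 3 arrays; the fenbuconazole points at 10 µM lie between -0.95 and -0.18, those of 2,4-D between -0.37 and 0.14.

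These calls depended on single libraries and on the reference. Without the replicate block, with arrays of one number no longer tied together, 2 probe sets passed in place of 9: EGR1 227404_PM_s_at and ATF3, both at an adjusted p of 0.0417. Of the 9 calls, 2 held without replicate 1 of both chemicals, 1 without replicate 2 and 4 without replicate 3. Without replicate 1, 2 or 3 of fenbuconazole at 10 µM 6, 4 and 5 held, and without replicate 1, 2 or 3 of 2,4-D at 10 µM 2, 4 and 4. Against the 3 DMSO arrays of each set, 0 probe sets passed in a fit of the 12 arrays at DMSO and 10 µM. In a fit of all 60 arrays, added after seeing the data, only EGR1 201694_PM_s_at passed (-0.73, adjusted p = 0.00277), while DDIT4 had -0.58 (adjusted p = 0.137), PCK2 -0.58 and TRIB3 -0.56 (both adjusted p = 0.469), CTH -0.60 (adjusted p = 0.590), CHAC1 -0.55 (adjusted p = 0.550) and ATF3 -0.35 (adjusted p = 0.852). All 9 probe sets kept their sign in every alternative. The labels call the DMSO controls common to the sets, but after centring the DMSO columns of the fenbuconazole set correlated with the same-numbered ones of the 2,4-D set at only 0.12 to 0.20. EGR1 201694_PM_s_at passed in 20 of 23 alternatives and DDIT4 in 20 of 24, against 8 of 24 for CHAC1 and 8 of 23 for CTH.

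Between fenbuconazole and 2,4-D, the called probe sets passed only in fenbuconazole when each chemical was taken by itself. Against its own lower concentrations, fenbuconazole had 167 probe sets called at 10 µM (0.306%), 116 lower (0.212%) and 51 higher (0.0934%), and 2,4-D had 0 (0%; smallest adjusted p = 0.0755 in limma, 2946 at an unadjusted p under 0.05). These contrasts share no array. Fitted on its own 27 arrays, fenbuconazole had 24 calls and 2,4-D 2, and without replicate 2 of both chemicals fenbuconazole had 32, without replicate 3 it had 69, and 2,4-D then had 13. Of the 116 probe sets that fenbuconazole lowered (median -0.39), 92 were also below 0 in 2,4-D, with a median of -0.06, beside 28694 of 54613 probe sets in all. Of the 51 that it raised (median 0.34), 29 were above 0 in 2,4-D, with a median of 0.01, beside 25919 of all 54613. In imazalil, an imidazole fungicide run in a set of its own, 101 of the 116 were below 0 (median -0.13) and 42 of the 51 above 0 (median 0.07). Of all 54613 probe sets, 28133 were below and 26480 above 0 in imazalil.

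Imazalil at 10 µM also shared the sign at all 8 named probe sets, beside 28133 of all 54613 probe sets below 0 in imazalil. Its own differences were -0.37 and -0.41 at EGR1, -0.17 at DDIT4, -0.32 at TRIB3, -0.39 at CHAC1, -0.32 at PCK2, -0.26 at CTH and -0.20 at ATF3. Of these EGR1 201694_PM_s_at (limma adjusted p = 0.00657), CHAC1 (adjusted p = 0.0284) and TRIB3 (adjusted p = 0.0419) passed in imazalil. Imazalil was fitted on its own 27 arrays, where 18 probe sets were called in all, beside 24 for fenbuconazole fitted the same way.

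Among the probe sets that fenbuconazole raised, SQOR, a mitochondrial enzyme of sulfide oxidation, had an own difference of 0.46 (adjusted p = 0.000109), against 0.08 in 2,4-D, and CCK, the peptide hormone cholecystokinin, 0.41 (adjusted p = 0.000821), against 0.19; both were chosen after their values were seen. PTX3, a secreted pentraxin also chosen that way, had own differences of -0.70 in fenbuconazole (adjusted p = 0.0018) and -0.58 in 2,4-D (adjusted p = 0.192), and a difference of -0.12 between them.

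On the higher side of the comparison no probe set with a gene name passed. The 4 with the smallest p were ZMIZ2 (0.54, adjusted p = 0.240), PYCARD, the inflammasome adaptor (0.75, adjusted p = 0.240), OR7C1, an odorant receptor (0.59, adjusted p = 0.260), and NUDC (0.56, adjusted p = 0.314). The probe sets of OR7C1 and NUDC were dim, at mean levels of 2.73 and 2.85, beside 4.01 at ZMIZ2 and 4.46 at PYCARD. PYCARD was at 4.85, 3.92 and 4.27 in fenbuconazole at 10 µM, against 3.64 to 4.44 below, and at 4.65, 4.58 and 4.58 in 2,4-D, against 4.30 to 5.15. Its fenbuconazole value thus rested mainly on replicate 1. ZNF813, a zinc finger protein, had 2,4-D deviations of -0.57, -0.62 and -0.56, beside -0.13, -0.13 and -0.23 in fenbuconazole, and did not pass (difference 0.42, adjusted p = 0.843).

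At the 8 lower concentrations the chemicals were also compared pairwise, each concentration against the other 7 lower ones. No probe set passed at 0.001, 0.003, 0.01, 0.1, 0.3, 1 or 3 µM (0%, with 2233 to 4549 at an unadjusted p under 0.05 in limma), and 2 passed at 0.03 µM (0.00366%), GNL1 at -0.51 (adjusted p = 0.0109) and an unnamed probe set at -0.60. Leaving out any 1 replicate number left 0 there, and leaving out replicate 1 gave 9 at 0.01 µM. With every concentration as its own level, 5 probe sets passed at 10 µM (0.00916%): both EGR1 probe sets, DDIT4, PCK2 and TRIB3. Adjusted over all 9 concentrations together, 3 passed at 10 µM and 2 at 0.03 µM.

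The called genes showed little below 10 µM. Their differences at the 8 lower concentrations lay between -0.25 and 0.28, and the outer ones were EGR1 at -0.25 and -0.22, PCK2 at 0.28 and CTH at 0.22, all at 3 µM, and CHAC1 at -0.25 (0.003 µM) and 0.24 (1 µM). Thus the difference between the chemicals at PCK2 and CTH was positive at 3 µM, where neither passed, and negative at 10 µM. The interval at 3 µM was -0.42 to -0.08 at EGR1 201694_PM_s_at, 0.09 to 0.48 at PCK2 and -0.04 to 0.49 at CTH. The 3 µM arrays are part of the reference at 10 µM. Without them 6 of the 9 calls held, all but CTH, CHAC1 and the unnamed probe set. Over 9 concentrations no slope differed between the chemicals (0%; smallest adjusted p = 0.182 in limma, 2523 at an unadjusted p under 0.05). Over the 8 lower concentrations only COL11A2, a collagen chain, passed (0.00183%), at -0.20 per log10 unit (SE 0.031, adjusted p = 0.00285), with slopes of -0.11 in fenbuconazole and 0.09 in 2,4-D. Without any 1 replicate number 0 passed.

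In all, 25 lists with 318 measured genes were compared, with 1 probe set per gene, the brightest. The lists were chosen with earlier results of these data known, so their counts beside all genes add no independent support. They are described by counts and medians beside all 19774 genes, of which 10092 had a negative difference (51.0%), 6 were called lower and 0 higher, and the median difference was -0.003. Among 18 ATF4-linked stress regulators, 14 had a negative difference (median -0.18), 4 were called lower, DDIT4, CHAC1, TRIB3 and ATF3, and 9 had an unadjusted p under 0.05 on the negative side, beside 0.0303% and 2.94% of all genes. Next were STC2, a secreted stanniocalcin (-0.47, adjusted p = 0.561), SESN2, a leucine sensor (-0.40, adjusted p = 0.760), JDP2 (-0.26), VLDLR (-0.21) and ATF5 (-0.19). ATF4 itself had -0.13 (adjusted p = 0.843), and DDIT3, which encodes the pro-apoptotic factor CHOP, -0.06 (95% interval -0.23 to 0.11, adjusted p = 0.993). The 4 members on the other side, GDF15, CEBPB, FGF21 and KLHL24, had 0.06, 0.06, 0.08 and 0.09. By own difference, 8 members were called lower in fenbuconazole and 0 in 2,4-D, with list medians of -0.27 and -0.07, beside 0.359% of all genes called lower in fenbuconazole.

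The enzymes of amino acid synthesis and one-carbon metabolism had 14 of 15 negative differences and a median of -0.18. PCK2 was called lower. ASNS, asparagine synthetase, had -0.38 (SE 0.093, adjusted p = 0.355), the serine synthesis enzymes PSAT1 and PSPH -0.35 and -0.25, CTH at its brighter probe set -0.31 and the mitochondrial folate enzyme MTHFD2 -0.23. ASNS was at 9.81, 9.80 and 9.80 in fenbuconazole at 10 µM, against 9.94 to 10.7 (median 10.3) at lower concentrations, and at 10.9, 11 and 10.7 in 2,4-D, against 10.6 to 11.3 (median 11). Its fenbuconazole arrays lay below all lower ones in level, and its own difference of -0.49 passed (adjusted p = 6.4e-06), against -0.11 in 2,4-D (adjusted p = 0.948). PHGDH and CBS, the first enzymes of serine synthesis and of transsulfuration, had -0.01 and -0.01, and PYCR1 alone was positive (0.14). In fenbuconazole 5 of the 15 were called lower by own difference, in 2,4-D 0, beside 0.359% of all genes in fenbuconazole.

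**Figure D2:**
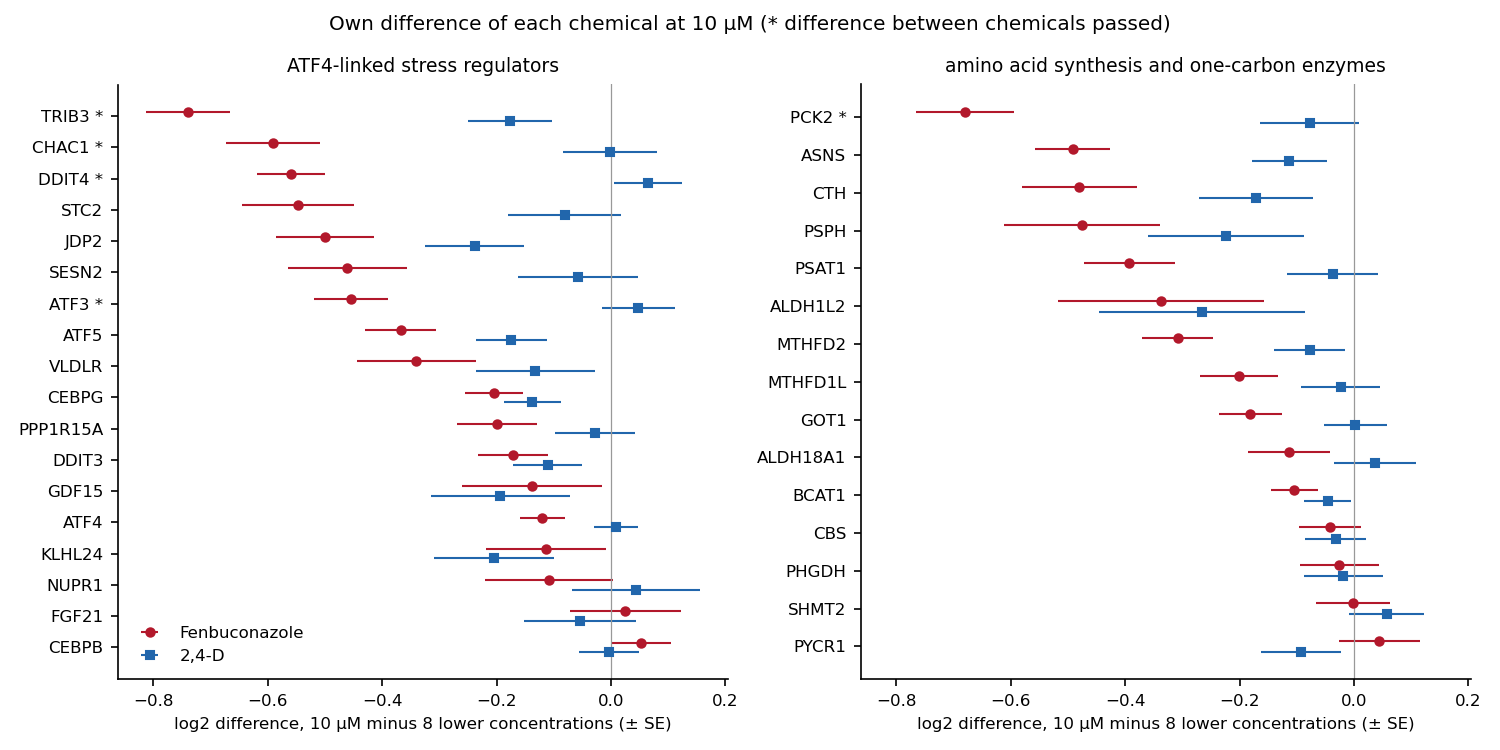
Own difference of fenbuconazole (circles) and of 2,4-D (squares) at 10 µM from the mean of 8 lower concentrations, in log2 units with bars of 1 SE, for the ATF4-linked stress regulators (left) and the enzymes of amino acid synthesis and one-carbon metabolism (right). Asterisks mark the genes whose difference between the chemicals passed; TRIB3 is at -0.74 in fenbuconazole and -0.18 in 2,4-D, PCK2 at -0.68 and -0.08.

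The uptake and charging genes that ATF4 also induces had smaller medians. Of 12 amino acid transporters 7 were negative (median -0.11), led by SLC7A11, the cystine importer (-0.31, adjusted p = 0.604), SLC38A2 (-0.17), SLC3A2 (-0.16) and SLC1A4 (-0.13), whereas SLC7A5, the large neutral amino acid transporter, had 0.06. Of 19 cytosolic aminoacyl-tRNA synthetases 15 were negative (median -0.09), with WARS1 at -0.26 (adjusted p = 0.651), GARS1 at -0.17, CARS1 at -0.14 and SARS1 at -0.14. None of these passed. The unfolded protein response, which is fed by stress of the endoplasmic reticulum, had 11 of 18 negative and a median of -0.03; its chaperone HSPA5 had -0.01, and SYVN1 (-0.24), SEL1L (-0.19), HERPUD1 (-0.18) and XBP1 (-0.17) did not pass.

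Among 20 immediate early genes 12 were negative, with a median of -0.03, and EGR1 alone was called. EGR4 had -0.41 (adjusted p = 0.781), FOSL1 -0.38 (adjusted p = 0.843) and JUN -0.29 (adjusted p = 0.545), while FOS had 0.08, IER2 -0.12 and SRF 0.07. Of 17 feedback and output genes of the ERK pathway 15 were negative (median -0.12) and none passed. The largest were the feedback inhibitors SPRY4 (-0.40, adjusted p = 0.628) and SPRED3 (-0.34, adjusted p = 0.870) and the ETS factor ETV5 (-0.30, adjusted p = 0.651), and SPRY1 went the other way at 0.31 (adjusted p = 0.900). ETV5 and SPRY2 were called by own difference in fenbuconazole, at -0.38 (adjusted p = 0.00118) and -0.39 (adjusted p = 0.0037), and had -0.08 and -0.12 in 2,4-D. The median of the ERK genes was -0.20 without replicate 1 and -0.06 without replicate 3, and that of the immediate early genes -0.07 without replicate 2.

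Sterol genes, the known response of animal cells to a block in this pathway, had mostly small positive differences. Of 18 cholesterol synthesis enzymes 15 were positive, with a median of 0.07, and none passed. At the brightest probe sets the largest were LSS, lanosterol synthase (0.26, SE 0.063, adjusted p = 0.361), EBP (0.21), ACAT2 (0.19) and DHCR7 (0.17). CYP51A1, the human lanosterol demethylase, was at 9.01, 9.26 and 9.01 in fenbuconazole at 10 µM, against 8.51 to 9.16 (median 9.02) below, and at 9.98, 10.0 and 9.87 in 2,4-D, against 9.66 to 10.2 (median 9.91). The values overlapped in both chemicals, and the difference of 0.05 had a 95% interval of -0.16 to 0.26. SQLE had 0.05 and HMGCS1 0.17. A dimmer DHCR7 probe set gave 0.34 (adjusted p = 0.377). By own difference fenbuconazole raised LSS (0.21, adjusted p = 0.0160) and the dimmer DHCR7 probe set (0.29, adjusted p = 0.0127), against -0.05 each in 2,4-D; by brightest probe set this is 1 of 18, beside 0.111% of all genes. Without replicate 2 the list's median was 0.12.

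The SREBP regulators and their relatives were positive in 9 of 11, with a median of 0.09. INSIG1, which retains SREBP in the endoplasmic reticulum and is itself an SREBP target, had 0.20 at its brightest probe set (adjusted p = 0.945), 0.29 at the second (adjusted p = 0.561) and 0.48 at the dimmest (adjusted p = 0.377). By own difference fenbuconazole raised the second (0.29, adjusted p = 0.00826) and the dimmest INSIG1 probe set (0.41, adjusted p = 0.0174), against 0.01 and -0.07 in 2,4-D. MYLIP and SREBF2 had 0.25 each, SREBF1 0.18 and MBTPS2 -0.16. Without replicate 1 the list's median was 0.04. Fatty acid synthesis enzymes were split, with 8 of 15 positive and FASN at 0.25, SCD at 0.23, ACACB at 0.20 and PNPLA3 at 0.19, none of which passed.

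**Figure D3:**
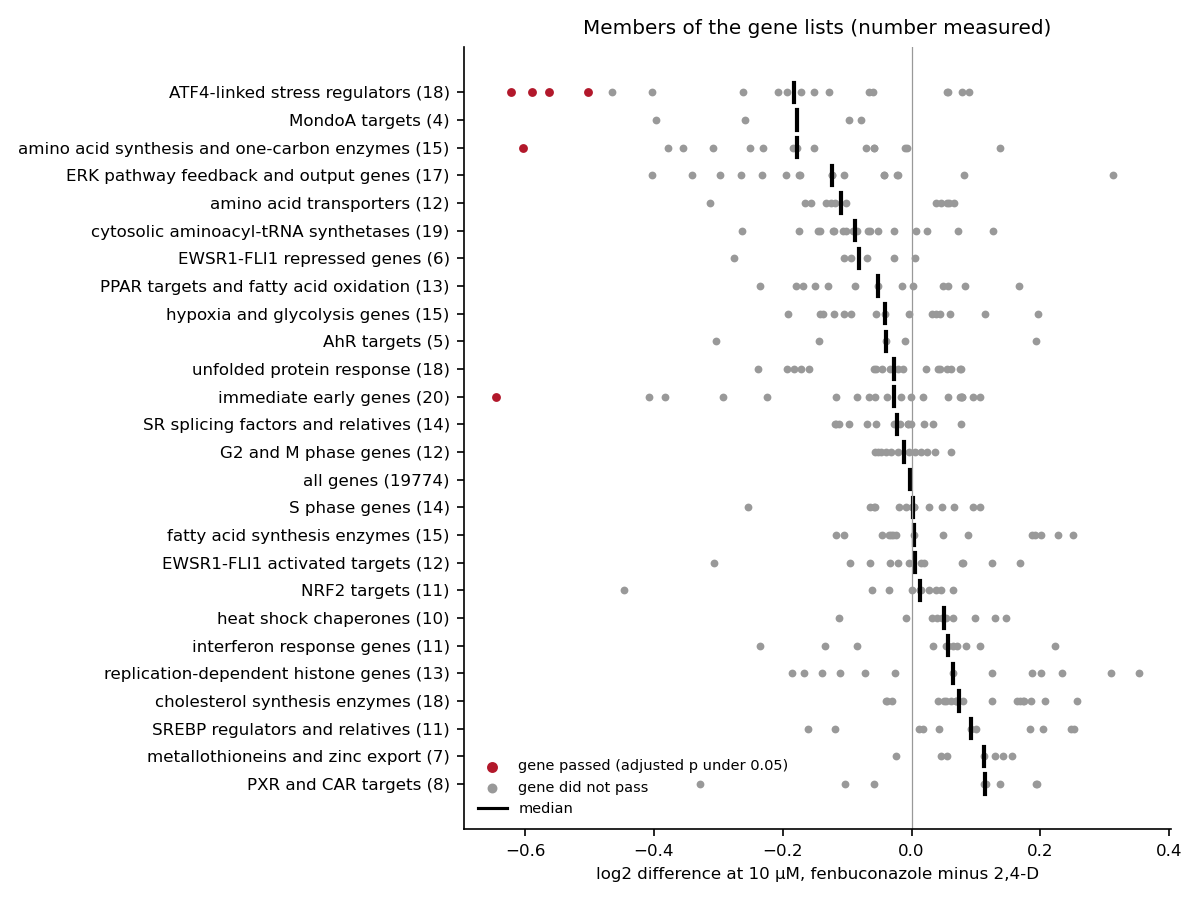
Difference at 10 µM, fenbuconazole minus 2,4-D, in log2 units (horizontal axis) for each measured member of 25 gene lists and the median of all genes (rows, ordered by median, number measured in brackets). Each point is 1 gene, filled red where it passed, and the bar is the list's median; 6 genes passed, all on the negative side, and the medians run between -0.18 and 0.11.

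The arrays at 10 µM were also summarised by the median deviation of a list in each array. For the ATF4-linked stress regulators it was -0.16, -0.34 and -0.20 in the fenbuconazole replicates and 0.04, -0.10 and -0.13 in those of 2,4-D. For the amino acid enzymes it was -0.16, -0.24 and -0.19 in fenbuconazole and -0.01, -0.16 and -0.06 in 2,4-D. The arrays of the chemicals did not overlap for the stress regulators and did for the enzymes. For the ERK genes the values were -0.20, -0.20 and -0.19, against -0.09, -0.04 and -0.01, and for the cholesterol enzymes 0.16, 0.13 and 0.07, against 0.03, 0.07 and -0.01.

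Along the concentrations, the mean of this list median for the stress regulators in fenbuconazole was -0.05 at 0.001 µM, 0.07 at 3 µM and -0.23 at 10 µM. In 2,4-D it was -0.04 at 0.001 µM, 0.04 at 3 µM and -0.06 at 10 µM. The amino acid enzymes behaved alike, with 0.08 at 3 µM and -0.20 at 10 µM in fenbuconazole, and 0.05 and -0.08 in 2,4-D. Both lists were thus lower at 10 µM than at 3 µM with both chemicals, and no test was made of these steps.

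**Figure D4:**
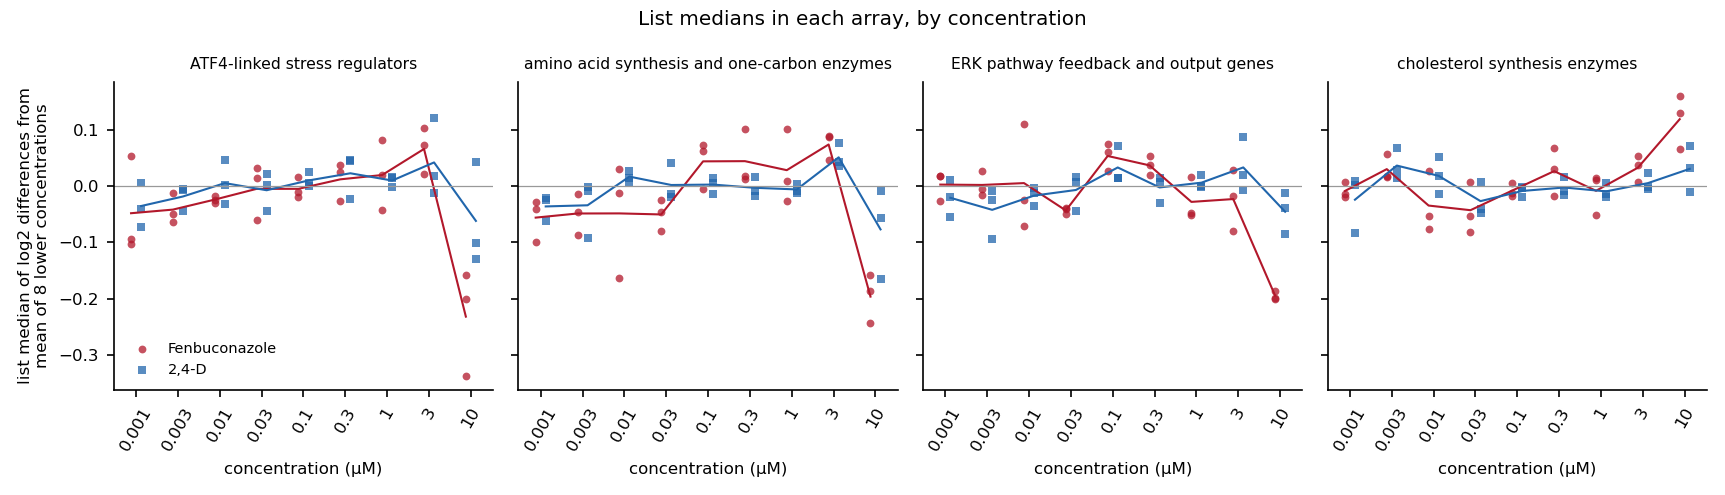
Median deviation of 4 gene lists in each array (log2 units, vertical axis) by concentration in µM (horizontal axis, evenly spaced steps). Points are arrays (circles fenbuconazole, squares 2,4-D) and lines join the means of 3 arrays; at 10 µM the fenbuconazole arrays average -0.23, -0.20, -0.20 and 0.12 in the 4 panels, and the 2,4-D arrays -0.06, -0.08, -0.05 and 0.03.

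Lists for the receptors through which liver cells sense foreign compounds and fatty acids held no called gene. AhR targets were negative in 4 of 5 (median -0.04), with CYP1B1 at -0.30 (adjusted p = 0.917), CYP1A2 at 0.19 and CYP1A1 at -0.14. PXR and CAR targets were positive in 5 of 8 (median 0.11), with CYP3A5 at -0.33, POR and CYP2C8 at 0.19 each, CYP3A4 at -0.06 and ABCB1, a drug efflux pump, at 0.11. PPAR targets were negative in 8 of 13 (median -0.05), led by ACADL at -0.24, and CPT1A, the entry enzyme of fatty acid oxidation, had -0.05 with an interval of -0.21 to 0.10, against an own difference of 0.63 in imazalil. PDK4 had 0.00 and HMOX1 0.01. Mean levels were only 2.28 at ABCB1, 2.86 at PDK4, 2.91 at CYP1A1 and 3.54 at HMOX1, against 8.12 at CPT1A. At the dim ones a small difference does not show that a gene failed to respond. The PXR and CAR median was 0.04 without replicate 2 and 0.19 without replicate 3, the PPAR median -0.09 without replicate 2 and -0.03 without replicate 3, and the AhR median -0.08 without replicate 3.

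The MondoA targets, induced by glucose phosphates, were negative in 4 of 4 (median -0.18, and -0.29 without replicate 1). TXNIP, which binds thioredoxin and limits glucose uptake, was at 6.40, 6.58 and 6.48 in fenbuconazole at 10 µM, against 6.65 to 7.30 (median 6.89) below, and at 7.78, 7.84 and 7.58 in 2,4-D, against 7.57 to 8.0 (median 7.78). Its fenbuconazole arrays lay below all the lower ones and its own difference of -0.44 passed (adjusted p = 0.00118), but the difference from 2,4-D of -0.40 did not (SE 0.110, adjusted p = 0.456). KLF10 had -0.26, ARRDC4 -0.10 and ARRDC3 -0.08.

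In the remaining lists no difference between the chemicals passed. NRF2 targets were positive in 8 of 11 (median 0.01), although OSGIN1 had -0.45 (adjusted p = 0.880), metallothioneins and the zinc exporter in 6 of 7 (0.11), heat shock chaperones in 8 of 10 (0.05) and interferon response genes in 8 of 11 (0.06). S phase genes were negative in 6 of 14 (0.00; CCNE2 -0.25), G2 and M phase genes in 7 of 12 (-0.01), SR splicing factors in 11 of 14 (-0.02), hypoxia and glycolysis genes in 9 of 15 (-0.04; VEGFA -0.19) and histone genes in 6 of 13 (0.06; H1-4 at 0.35). The targets that EWSR1-FLI1 activates in these cells were negative in 6 of 12 (0.01; GLI1 -0.31) and those it represses in 5 of 6 (-0.08; LOX, lysyl oxidase, -0.28). RBM4 had 0.03 at the probe set named for it. The interferon median was 0.03, 0.12 and -0.01 without replicates 1, 2 and 3, and the histone median -0.02 without replicate 3.

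As measures of RNA quality, the 3′ minus 5′ control differences of ACTB and GAPDH at 10 µM deviated from the lower concentrations by -0.13 to 0.03 in fenbuconazole and by -0.09 to 0.04 in 2,4-D. With both as covariates 8 of the 9 calls remained, all but PCK2. The residual spread of the lower arrays was 0.157 in fenbuconazole and 0.137 in 2,4-D (median over probe sets), and with the spread estimated per chemical 9 probe sets passed.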

How the data were processed

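Total RNA of A673 cells was measured on Affymetrix 3′ expression arrays. The authors deposited log2 expression values, made from the scans by RMA in Partek for the set of each chemical separately; versions are not given in the sources used here. The table held 54715 probe sets, of which 102 array controls were left out and 54613 were tested: 40914 carry 1 gene symbol in the platform annotation, 864 several and 12835 none. Array data give no read depth; the 3 arrays per concentration limit the precision.

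The 54 treated arrays of the fenbuconazole and 2,4-D sets were fitted in limma 3.58.1 (R 4.3.3) with a term for 10 µM in each chemical and 6 blocks, chemical set by replicate number, and tested with eBayes, two-sided, with Benjamini-Hochberg adjustment over all probe sets at 0.05. Further fits used every concentration as a level, or a slope on log10 concentration. The scripts were tested on simulated data. The block follows the study's methods, in which replicates are repeat experiments with other cell batches. Deviations of same-numbered arrays correlated at a mean of 0.051 in fenbuconazole and 0.080 in 2,4-D (other numbers -0.025 and -0.040), single pairs were below 0, and 24 of 27 arrays of each chemical were closest to their own number. No arrays of a chemical were alike enough to be 1 library (highest r after centring 0.22 in fenbuconazole and 0.31 in 2,4-D).

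The members, the gene lists and the rule for named genes were chosen with earlier results of these data known. The rule took the 15 called probe sets per direction with the largest difference, the 4 with the smallest p where fewer than 4 passed, up to 3 per direction for each lower concentration and slope, up to 4 members per list, and a fixed set that included EGR1, TRIB3, ASNS, CYP51A1, TXNIP, CPT1A, ZNF813 and RBM4. Alternatives were no block, a second quantile normalization, equal array medians, each replicate or 10 µM array left out, the 3 lowest concentrations or the DMSO arrays as reference, the dim probe sets excluded, a single probe set for each gene, a trended and robust eBayes, array weights, imazalil added, and ACTB and GAPDH as covariates. Added after seeing the data were the spread per chemical, each chemical's own 27 arrays, leaving 3 µM out of the reference, and DMSO with 60 arrays. Promoters came from RefSeq (GRCh38.p14). Tables were read in Python 3.11.15 with pandas 2.3.3, and plots made with matplotlib 3.10.9.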

Additional observations from a re-analysis of the deposited data

Results flagged for a closer look

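Each of the 9 probe sets below had a difference at 10 µM, relative to lower concentrations, that was not the same in fenbuconazole as in 2,4-D by the test of the difference itself (limma, adjusted over 54613 probe sets). EGR1 differed by -0.66 (201694_PM_s_at) and -0.64 (227404_PM_s_at), CTH by -0.63, DDIT4 by -0.62, PCK2 by -0.60, CHAC1 by -0.59, TRIB3 by -0.56 and ATF3 by -0.50. The unnamed probe set 240832_PM_at differed by 0.56 at a mean level of 2.31, with fenbuconazole deviations of 0.04, 0.51 and 0.81. Groups of 3 arrays are too small for a search for single arrays that stand apart.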

How the results depend on the processing

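The 9 called probe sets kept their direction in every alternative in which they were tested, and 0.05 was passed again by 20 of 23 alternatives for EGR1 201694_PM_s_at, 20 of 24 for DDIT4, 15 of 24 for EGR1 227404_PM_s_at, 13 of 24 for ATF3 and for TRIB3, 10 of 24 for PCK2, 8 of 24 for CHAC1, 8 of 23 for CTH and 8 of 22 for the unnamed probe set. The lower calls were 8 and the higher call 1. Without the replicate block, which tied arrays of one number together, 2 passed (2 lower, 0 higher), fenbuconazole alone had 77 (60 lower, 17 higher) in place of 167, and 0.001 µM had 1. A second quantile normalization left 5 (4 lower), gave 113 higher calls in fenbuconazole alone, 1 call at 0.001 µM, 0 at 0.03 µM, 1 slope over 9 concentrations and a median of -0.071 for AhR targets. With the 3 lowest concentrations as reference 2 passed (2 lower, 0 higher), with the 12 arrays at DMSO and 10 µM 0 (0 lower, 0 higher), with DMSO in a fit of 60 arrays 1 (1 lower, 0 higher), with a factor of all concentrations 5 (5 lower, 0 higher) and with array weights 4 (4 lower, 0 higher). No higher call (0) remained without dim probe sets, with 1 probe set per gene or without 3 µM in the reference. Estimated per chemical, the spread gave 102 calls in fenbuconazole (21 higher) and 5 in 2,4-D (3 lower, 2 higher), and fits of its own 27 arrays 24 in fenbuconazole (19 lower, 5 higher) and 2 in 2,4-D (2 lower). The causes were not tested.

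Leaving out a replicate number or a single 10 µM array gave 1 to 10 calls in all, 1 to 7 lower and 0 to 4 higher. The remaining ranges are over the 3 replicate numbers left out in turn. Fenbuconazole alone had 32 to 170 calls (27 to 84 lower, 5 to 86 higher) and 2,4-D alone 0 to 13 (0 to 4 lower, 0 to 9 higher). At 0.01 µM there were 0 to 9 calls and at 0.03 µM 0 to 0, and slopes had 0 to 1 over 9 concentrations and 0 to 0 over 8. List medians ran between -0.20 and -0.13 for amino acid synthesis, -0.20 and -0.065 for ERK genes, -0.11 and -0.056 for tRNA synthetases, -0.070 and -0.029 for immediate early genes, 0.073 and 0.12 for cholesterol enzymes, 0.044 and 0.081 for SREBP regulators, -0.016 and 0.056 for fatty acid enzymes, -0.070 and 0.010 for the unfolded protein response, -0.077 and -0.034 for AhR, 0.039 and 0.19 for PXR and CAR, 0.089 and 0.15 for metallothioneins, -0.044 and -0.030 for SR factors, -0.29 and -0.13 for MondoA, -0.092 and -0.029 for PPAR, -0.011 and 0.12 for interferon genes, -0.015 and 0.088 for histones, -0.032 and 0.030 for EWSR1-FLI1 activated targets, -0.016 and 0.010 for NRF2, -0.043 and 0.041 for S phase, -0.031 and -0.0032 for G2 and M phase and -0.054 and -0.024 for hypoxia. The other 4 lists kept their sign.

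Of the named genes, 8 that did not pass changed sign in at least 1 alternative. Over a replicate number or 10 µM array left out, CYP3A4 ran between -0.16 and 0.10, DDIT3 between -0.12 and 0.029, CPT1A between -0.18 and 0.039, RBM4 between -0.028 and 0.089, HMOX1 between -0.034 and 0.058, PDK4 between -0.093 and 0.085 and CYP51A1 between -0.00055 and 0.11. RBM4 had -0.032 with the 3 lowest concentrations as reference and -0.00056 with DMSO in either fit, CYP3A4 0.0033 and PDK4 -0.016 with the 3 lowest, PDK4 -0.0050 after quantile normalization and -0.0030 with equal medians, and CYP1B1 0.0089 with DMSO in either fit. The 95% interval of a difference had a median half-width of 0.26, which limits what 3 arrays per concentration can show.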

Other observations

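With 2,4-D alone, the probe sets with the smallest p at 10 µM, none past the threshold, were mostly dim. RBM4 213718_PM_at had an own difference of -0.48 (adjusted p = 0.157), with deviations of -0.62, -0.65 and -0.17, beside -0.08 in fenbuconazole, and NUP153, a nuclear pore protein, -0.36, with -0.23, -0.50 and -0.37, beside 0.00. RNASE2, an eosinophil ribonuclease, had 0.41 at a mean level of 2.42, with 0.40, 0.74 and 0.08, beside -0.11 in fenbuconazole. In fenbuconazole, PDE4D, a cAMP phosphodiesterase, had -0.58 (limma adjusted p = 0.00522), against -0.21 in 2,4-D, and LOX 204298_PM_s_at -0.47 (adjusted p = 0.00274), against -0.05. All of these were chosen after their values were seen.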
